A study of Mus musculus with 4 samples.

Results

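Ebf2, Ccn3, Meox2, Itih5 and Cadm2 were followed through the mesenchyme of the developing mouse molar. They were chosen by their measured level, because each differed between the upper and the lower jaw in the same direction at both stages studied, so the difference itself is a description here and carries no test. They are 5 of the 32285 features in the deposited matrices. The cells came from wild type C57BL/6J (WTB6) mice as 4 single-cell RNA libraries: maxillary and mandibular molar tooth organs in the embryo (E15.5, entered as E15 in one label field) and at postnatal day 1 (P1, taken from P0 to P1 pups). No treatment or allele distinguished the groups. Each jaw and stage was 1 library of pooled tooth organs (n = 6 by the protocol), so no difference between jaws could be set against a spread between animals, and no p-value was computed. The intervals given below are 95% intervals that cover counting error only.

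Ebf2 encodes a helix-loop-helix transcription factor of the early B-cell factor family, known in adipocyte precursors and in stromal cells of connective tissue. Meox2 encodes a homeodomain transcription factor of paraxial mesoderm and limb muscle development that is also made in vascular endothelium. Ccn3 (formerly Nov) and Itih5 encode secreted proteins of the extracellular matrix, the first of the CCN family of matricellular proteins and the second a heavy chain that binds hyaluronan. Cadm2 encodes an immunoglobulin-type cell adhesion molecule best known from synapses and axons. Mesenchyme of the jaws derives from the cranial neural crest, and around a molar it forms the dental papilla, the dental follicle, alveolar bone and the connective tissue that surrounds them.

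The genes lie on 5 chromosomes of the mm10 build (GENCODE M21 annotation). Ebf2 occupies chr14:67233292-67430918 on the forward strand, Ccn3 chr15:54745702-54754039 forward, Meox2 chr12:37108540-37179534 forward, Itih5 chr2:10153571-10256529 forward and Cadm2 chr16:66655421-67620908 reverse. The antisense gene 4930438E09Rik (chr14:67332042-67397742) runs inside Ebf2, so reads of the pair were taken as uncertain, since the strand setting of the counting was not given in the sources used here. The same holds for Gm48617 (chr12:37049217-37147149), which overlaps Meox2 on its own strand, and for the antisense genes 1700010K23Rik and 4933411O13Rik inside Cadm2. RefSeq promoter windows (GRCm38.p6) were at hand for 3 of the members, Meox2, Itih5 and Cadm2. They are shown because Meox2 and Itih5 shared a direction and Cadm2 had the opposite one. Each line is the 120 bases before the start site, read 5' to 3' on the gene's strand, and capitals mark a match to a motif searched.
Meox2, chr12:37108420-37108539: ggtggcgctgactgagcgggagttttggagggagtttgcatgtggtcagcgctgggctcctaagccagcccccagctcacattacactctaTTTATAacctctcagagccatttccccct
Itih5, chr2:10153423-10153542: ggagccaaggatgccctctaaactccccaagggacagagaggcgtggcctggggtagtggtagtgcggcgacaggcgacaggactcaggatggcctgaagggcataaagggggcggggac
Cadm2, chr16:67620909-67621028: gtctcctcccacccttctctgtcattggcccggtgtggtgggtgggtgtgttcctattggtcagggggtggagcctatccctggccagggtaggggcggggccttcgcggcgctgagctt
The motifs searched, on both strands of the whole windows, were the EBF palindrome TCCCNNGGGA, the homeobox core TAATTA and the TATA box TATAAA. The single match was a TATA box on the reverse strand of Meox2, beginning at position -29. Of all 32851 promoter windows, 13.6% held TATAAA, 5.29% held TAATTA and 0.904% held TCCCNNGGGA. A match is a run of letters and not a shown binding site.

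Barcodes with at least 1000 unique molecular identifiers (UMIs, counted transcripts) were kept. This left 10073 maxillary and 6911 mandibular cells at E15.5, with medians of 9596 and 11234 UMIs. At P1 it left 17040 maxillary and 10120 mandibular cells, with medians of 4019 and 10390 UMIs. The P1 libraries shared 7131 barcodes, whereas the other pairs of libraries shared between 28 and 70. In the shared barcodes the maxillary count was higher by a nearly fixed factor, with a median log2 ratio of 2.07. These barcodes were therefore dropped from the P1 mandibular library and kept in the maxillary one. The P1 maxillary library had 2 parts. Its 7129 shared barcodes had a median of 12089 UMIs, and its 9911 barcodes that were not shared had a median of 2545. In the mesenchyme of these parts Pax3, a transcription factor gene of the neural crest and upper face, stood at 0.3 and 177 counts per 1000000 (CPM), and Alx1, a homeobox gene of the frontonasal mesenchyme, at 0.3 and 154 CPM. The cells that were not shared held nearly all of a cluster led by Fstl5, Myt1l, Calb2, Lhx2 and Gng13, genes known from olfactory neurons among others (1 of its 803 cells had a shared barcode), and most maxillary cells of a cluster led by the hormone genes Vip, Gh, Tshb, Pomc and Cga, most of them known from the pituitary (30 of its 360 maxillary cells had a shared barcode). Whether all cells of this part came from molar tissue was not tested, and this bears on every P1 maxillary value that includes them. The main P1 values are therefore given for each part as well.

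Cells of both jaws were clustered together at each stage, without the 5 genes, and clusters were named by marker genes. Mesenchyme-like cells numbered 5356 (maxillary) and 2859 (mandibular) at E15.5. At P1 they numbered 8162 in the maxillary library, 4753 of them with shared barcodes, and 5070 in the mandibular library. Hand2, which encodes a transcription factor of the mandibular arch, stood at 0.91 CPM in E15.5 maxillary mesenchyme and at 21.8 CPM in mandibular mesenchyme, and at 0.054 and 8.92 CPM at P1, the direction the jaw labels give. The summed epithelial, endothelial, immune and glial markers each stood between 4.8 and 55.7 CPM in the mesenchyme of the 4 libraries, and those of pericytes between 103 CPM and 212 CPM. Hemoglobin was far higher: the 6 erythroid markers summed to 10806 CPM in E15.5 maxillary and 10480 CPM in E15.5 mandibular mesenchyme, led by Hbb-bs at 5677 and 5562 CPM. At P1 they summed to 1661 and 4158 CPM, again led by Hbb-bs, at 909 and 2262 CPM. Most of this lay in a small population at each stage that hemoglobin genes led: at E15.5, 212 cells held Hbb-bs at 144541 CPM against 368 CPM in the other mesenchyme. In the parts of the P1 maxillary library they summed to 826 CPM with shared barcodes and 6922 CPM with the others, below and above the mandibular library. The 7 muscle markers summed to 36.8 and 79.1 CPM at E15.5 and to 21.6 and 174.6 CPM at P1, where Acta1, skeletal muscle actin, led with 9.3 and 147.8 CPM. None of the erythroid or muscle markers was at 0 in any of the 4 libraries. The part of this muscle RNA in the results below was not tested.

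Ebf2, Ccn3, Meox2 and Itih5 were higher in mandibular mesenchyme and Cadm2 was higher in maxillary mesenchyme. A level here, in CPM, is the summed UMIs of a gene scaled to the summed UMIs of the mesenchyme of a library. Ebf2 stood at 120.2 CPM (95% interval 117.4 to 123.0) in the E15.5 maxillary library and at 465.6 CPM (459.0 to 472.4) in the mandibular one. At P1 it stood at 26.7 CPM (25.5 to 27.9) and 207.8 CPM (204.3 to 211.3). The mandibular level was thus 3.87-fold higher at E15.5 and 7.80-fold higher at P1. Ccn3 had the lowest levels of the 4 genes, 19.6 CPM (18.4 to 20.7) in maxillary and 79.7 CPM (77.0 to 82.5) in mandibular mesenchyme at E15.5. Its P1 levels were 6.08 CPM (5.53 to 6.67) and 71.6 CPM (69.6 to 73.7). These are folds of 4.08 and 11.8. Meox2 stood at 70.9 CPM (68.8 to 73.1) and 225.5 CPM (220.9 to 230.2) at E15.5, and at 17.5 CPM (16.6 to 18.5) and 83.8 CPM (81.6 to 86.1) at P1. Itih5 stood at 88.5 CPM (86.1 to 90.9) and 278.6 CPM (273.4 to 283.8) at E15.5, and at 32.8 CPM (31.5 to 34.2) and 192.2 CPM (188.9 to 195.6) at P1. The folds were 3.18 and 4.79 for Meox2 and 3.15 and 5.85 for Itih5. Cadm2 went the other way, with 133.7 CPM (130.8 to 136.7) in maxillary against 38.5 CPM (36.6 to 40.5) in mandibular mesenchyme at E15.5. At P1 Cadm2 reached 155.1 CPM (152.3 to 158.0) against 17.3 CPM (16.3 to 18.3). Its maxillary level was 3.47-fold higher at E15.5 and 8.96-fold higher at P1. For every gene the intervals of the jaws were apart at both stages, but they hold no variation between animals.

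**Figure D1:**
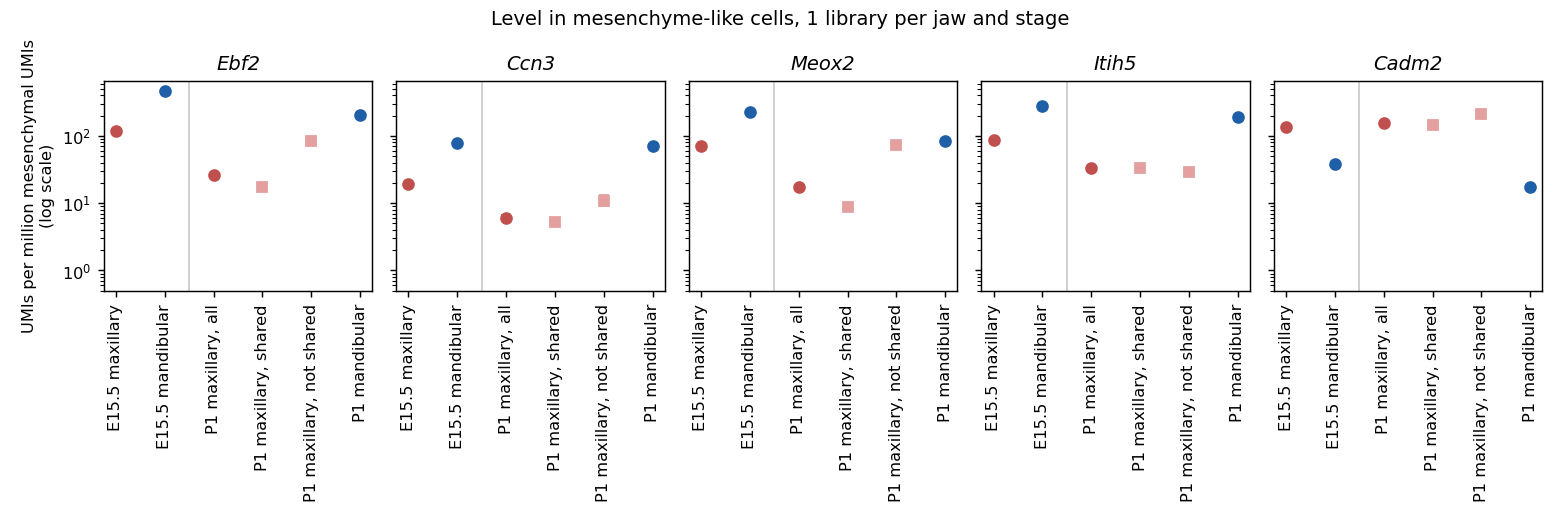
Level of each gene in mesenchyme-like cells (CPM of mesenchymal UMIs, log axis) in each library, with 95% counting intervals that are mostly smaller than the symbols; red is maxillary, blue mandibular, and pale squares are the 2 parts of the P1 maxillary library. Blue lies above red for Ebf2, Ccn3, Meox2 and Itih5 and below it for Cadm2, and for Meox2 the P1 maxillary cells with barcodes that were not shared (73.0 CPM) lie close to the mandibular library (83.8 CPM).

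All 10 ratios, 5 genes at 2 stages, were past 2-fold. Among the 3887 genes with at least 50 CPM in either jaw at E15.5, 1.44% were past 2-fold towards the mandibular and 3.04% towards the maxillary library. At P1 these shares were 1.73% and 1.45% of 3942 genes. Since the genes were chosen on this contrast, nothing is read from their count or from their places in the order given next. Ordered by the smaller of the 2 stages' log2 ratios among 3468 genes, the 4 mandibular genes held the first 4 places, with Itih5 last at 1.65, and Tppp3, a tubulin polymerization gene, came just outside at 1.60. In the other direction Cadm2 (1.80) was the third, behind Tfap2b (2.33) and Itga8 (1.80). Tfap2b was named after its value was seen.

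The genes were also read in cells that should lack them; whether their UMIs there came from free RNA, doublets or misnamed cells was not tested. In immune-like and erythroid-like cells together, the 5 genes stood between 0.54 and 8.62 CPM in the E15.5 libraries and between 1.41 and 8.75 CPM in the P1 maxillary library. In the P1 mandibular library they stood between 3.33 CPM for Cadm2 and 19.0 CPM for Ebf2. At P1 the Ebf2 level in these cells was thus itself higher in the mandibular library (19.0 against 4.22 CPM), whereas at E15.5 the intervals overlapped, 5.55 CPM (4.35 to 6.96) in maxillary and 7.27 CPM (6.04 to 8.68) in mandibular cells. The share of mesenchymal cells with an Ebf2 UMI at E15.5 was 19.8% (maxillary) against 65.9% (mandibular), and 7.80% and 30.2% after each cell was thinned to 1000 UMIs. In immune-like and erythroid-like cells the shares were 2.21% and 2.15% before thinning, at medians of 7600 and 8304 UMIs against 10067 and 13580 in the mesenchyme. For Cadm2 the share was 30.5% in maxillary and 12.8% in mandibular mesenchyme, and 9.47% and 3.08% after thinning. At P1 the thinned shares were 3.21% and 15.1% for Ebf2 and 11.8% and 1.68% for Cadm2. In the parts of the maxillary library they were 1.41% and 5.72% for Ebf2, shared barcodes first, and both lay above 10% for Cadm2.

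The mesenchyme was next split into populations, 21 at E15.5 and 24 at P1, again clustering both jaws together without the 5 genes. The populations are called by their leading genes, and a cell type name is given only where its fixed markers led. At E15.5 Ebf2 was highest in a population led by Grm8, Rbp4, Il1rapl2, Ntm and Nr3c2, at 810 CPM in 231 maxillary cells and 816 CPM in 674 mandibular cells. In a population led by Ly6a, Kank1, Wnt2, Tek and Mfap5 it stood at 667 CPM in 310 maxillary cells and 628 CPM in 581 mandibular cells. In a population led by Gpr83, Bst2, Il33, Sult1a1 and Hpse2 it stood at 612 CPM in 45 and 576 CPM in 221 cells. These were the 3 populations with at least 500 CPM of Ebf2 in both jaws. They made up 10.9% of maxillary and 51.6% of mandibular mesenchymal cells. Decorin (Dcn), a connective tissue proteoglycan gene, was the most abundant fibroblast marker in each of the 3 in both jaws, between 914 and 2565 CPM. Over all E15.5 mesenchyme Dcn stood at 1298 CPM in maxillary and 1547 CPM in mandibular cells. Of the 3 populations only the Ly6a one was above this in both jaws.

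These 3 populations were chosen by a high Ebf2 level in both jaws, so its near-equal level within them was partly fixed by that choice and is only a description. Ebf2 stood at 720 CPM in maxillary and 704 CPM in mandibular cells, a log2 difference of 0.03 (interval -0.02 to 0.08). Ccn3 stood at 116.0 and 115.6 CPM (0.00, -0.12 to 0.13), and Meox2 at 309 and 300.1 CPM (0.04, -0.03 to 0.12). Itih5 was lower in maxillary cells, at 303 against 387 CPM (-0.35, -0.43 to -0.28). Outside these populations all 4 remained lower in the maxillary jaw, Ebf2 at 50.4 against 210.9 CPM. Part of that remainder lay in a dividing population led by Hmmr, Hist1h1b, Ccna2, Hist1h2ap and Pimreg, with 219 CPM of Ebf2 in 241 maxillary and 526 CPM in 213 mandibular cells. Another part lay in a tendon or ligament-like population led by Scx, Tnmd, Cilp, Zfp185 and Col22a1. There Meox2 stood at 338 CPM in 136 maxillary and 393 CPM in 213 mandibular cells, whereas Ccn3 stood at 1.7 and 0.7 CPM. Meox2 was thus carried by tendon-like cells that held hardly any Ccn3.

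Itih5 had a further carrier at E15.5, a population led by Irx1, Irx2, Col7a1, Styxl1 and Cldn10, with 476 CPM in 174 maxillary and 448 CPM in 19 mandibular cells. Ebf2 stood at 0.6 CPM there in maxillary cells and had no UMI in the mandibular ones. In a population with Alx1, Synpo2, Pax3 and Thsd7b among its leading genes, Itih5 had 57 UMIs in 337 maxillary cells, and 277 UMIs (832 CPM) in 25 mandibular cells. Ccn3 stood at 10.3 and 168 CPM there. These gaps rest on 25 mandibular cells.

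At P1 the 2 populations with at least 500 CPM of Ebf2 in both jaws held most of the mandibular UMIs of the 4 genes. One was connective tissue fibroblast-like, led by Ly6a, Ly6c1, Pi16, Ecm1 and Tek, with 193 maxillary and 672 mandibular cells. The other was led by Angptl7, Rbp4, Entpd2, Myl1 and Acta1, with 63 maxillary and 694 mandibular cells. Together they made up 3.14% of maxillary and 26.9% of mandibular mesenchymal cells. They held 88.3% of the Ebf2, 93.3% of the Ccn3, 78.9% of the Itih5 and 72.5% of the Meox2 UMIs of mandibular mesenchyme. In the second population muscle RNA moved with the jaw: the 7 muscle markers summed to 154 CPM in maxillary cells, 2 of the markers at 0, and to 782 CPM in mandibular cells, with Acta1 at 101.2 and 679 CPM. Epithelial markers moved too, from 22.0 CPM in maxillary cells, 4 of 7 at 0, to 101.3 CPM in mandibular cells, led by Krt14 at 37.6 CPM. The part of either in the levels of the 4 genes there was not tested.

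Within the P1 carriers, chosen by the same Ebf2 minimum, Ccn3 and Itih5 stood further apart between the jaws than Meox2. The Ebf2 values within these carriers were partly fixed by that choice and are only a description. Over both populations Ebf2 stood at 679 CPM in maxillary and 794 CPM in mandibular cells (log2 -0.23, -0.33 to -0.13) and Meox2 at 283 and 263 CPM (0.11, -0.05 to 0.26). Ccn3 stood at 107 and 289 CPM (-1.43, -1.68 to -1.19), and Itih5 at 271 and 657 CPM (-1.27, -1.43 to -1.12). The lower maxillary levels of Ccn3 and Itih5 were seen in each population taken alone. In the Ly6a population, Ccn3 stood at 107.4 against 289.6 CPM and Itih5 at 269 against 551 CPM. In the Angptl7 population, Ccn3 stood at 105.6 against 289.0 CPM and Itih5 at 286 against 755 CPM. Connective tissue fibroblast markers were lower in the same maxillary cells: the 5 summed to 4258 against 6343 CPM in the Ly6a population and to 1892 against 3977 CPM in the Angptl7 population. In the Ly6a population they summed to 5456 CPM with shared barcodes and to 2303 CPM with the others. In the Ly6a population muscle markers summed to 21.5 against 122.7 CPM, tendon markers to 96.7 against 223.7 CPM and erythroid markers to 215 against 548 CPM. The part of these shifts in Ccn3 and Itih5 was not tested. With shared barcodes alone the log2 differences over both populations were -0.26 for Ebf2, 0.39 for Meox2, -1.02 for Ccn3 and -0.77 for Itih5, from 65 maxillary cells. Fewer than 20 of these cells lay in the Angptl7 population, so the differences with shared barcodes also hold the mix of the populations. With the barcodes that were not shared the log2 differences were -0.18, -0.33, -2.19 and -2.33 in the same order, from 191 cells. The tendon or ligament-like population of P1, led by Tnmd, Kera, Scx, Chst5 and Cilp, again carried Meox2 (246 CPM in 30 maxillary and 295 CPM in 356 mandibular cells) and Itih5 (390 and 349 CPM), with Ccn3 at 8.5 and 5.5 CPM. Its cells differed between the jaws in other markers as well, with tendon markers at 3522 against 8079 CPM, fibroblast markers at 1451 (3 of 5 at 0) against 5867 CPM and muscle markers at 8.5 against 111.6 CPM. Their part in these levels was not tested.

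Cadm2 was carried by other populations. At E15.5 it stood at 309 CPM in 704 maxillary and 311 CPM in 140 mandibular cells of a population led by Pappa2, Frem2, Ano3, Itgbl1 and Ryr3, which was 13.1% of maxillary and 4.90% of mandibular mesenchyme. In a population led by Gldn, Gm26871, Gabrg3, Krt18 and Kirrel3 it stood at 290 CPM in 369 maxillary and 56.1 CPM in 43 mandibular cells. In the Alx1 population it stood at 199.6 and 18.0 CPM. In the 3 populations that carried Ebf2 it was low in both jaws, at 23.7 and 25.1 CPM.

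At P1 the maxillary level of Cadm2 was above the mandibular one within each population described next that had at least 20 cells in both jaws. In a population led by Pappa, Gabrg3, Trpc5, Krt18 and 9130410C08Rik, it stood at 173 CPM in 622 maxillary and 23.6 CPM in 430 mandibular cells. In one led by Dab1, Eomes, Tnr, Upp1 and Syt6 it stood at 599 CPM in 287 maxillary and 73.1 CPM in 37 mandibular cells. In one led by Col19a1, Scn9a, Cfap61, Mgat4c and Kctd8 it stood at 441 CPM in 604 maxillary and 197.6 CPM in 85 mandibular cells. In a dental follicle-like population led by Moxd1, Bmp3, Ibsp, Gm2115 and Mical2, it stood at 196 CPM in 243 maxillary and 89.2 CPM in 97 mandibular cells. The cells of the first 3 were nearly all from shared barcodes, 579 of 622, 265 of 287 and 596 of 604. A further 5 populations, led by Pax3, Cdh20, Pappa2, Lrriq1 and Epha6, held between 345 and 1025 maxillary cells each and at most 10 mandibular cells. Cadm2 stood between 106 and 512 CPM in their maxillary cells. Most of those cells had barcodes that were not shared, from 304 of 370 in the Pappa2 population to 367 of 368 in the Lrriq1 population. The Cdh20 population, with Nrg3, Syt1, Meis2 and Pcdh15 among its leading genes, also held Meox2 at 288 CPM and 30.2% of the Meox2 UMIs of P1 maxillary mesenchyme.

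**Figure D2:**
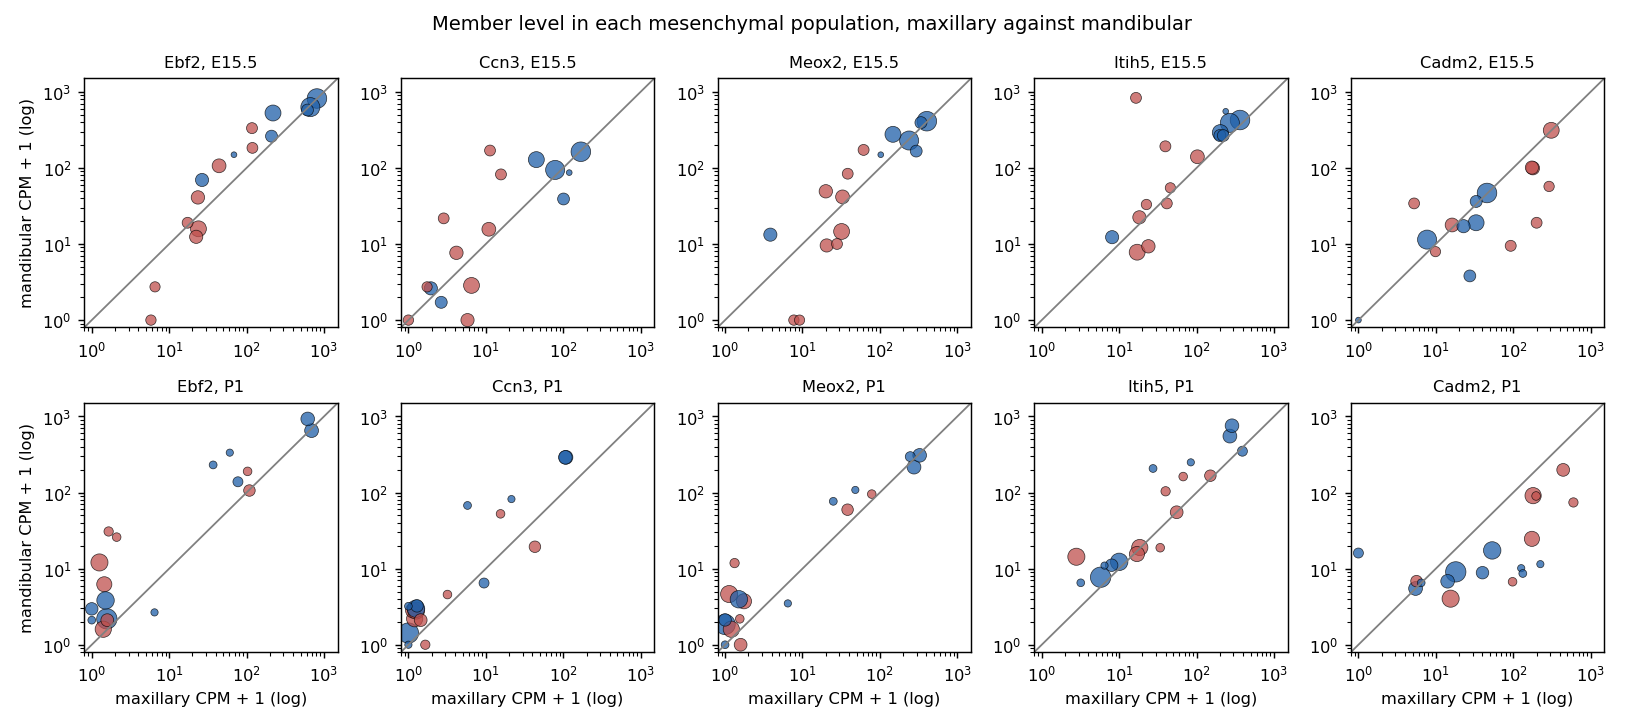
Level of each gene in each mesenchymal population with at least 20 cells in both jaws, maxillary against mandibular (CPM + 1, log axes); a point is a population, its area grows with its share of mesenchymal UMIs, and it is blue where that share is larger in the mandibular and red where it is larger in the maxillary library. At E15.5 the large blue points of Ebf2, Ccn3 and Meox2 lie near the line of equal levels. In the Grm8 population Ebf2 stood at 810 CPM in maxillary and 816 CPM in mandibular cells. At P1 most points of Cadm2 lie on the side of higher maxillary levels.

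The genes were also counted in the same cells. In all E15.5 mandibular mesenchymal cells 64.4% had an Itih5 UMI, 59.6% a Meox2 UMI, 31.2% a Ccn3 UMI and 12.8% a Cadm2 UMI, and at P1 38.6%, 28.8%, 20.7% and 7.91%. In all maxillary mesenchymal cells the shares were 26.5%, 23.5%, 7.45% and 30.5% at E15.5 and 13.7%, 7.99%, 2.28% and 29.2% at P1, in the same order. Of 1553 P1 mandibular mesenchymal cells with an Ebf2 UMI, 90.6% also had an Itih5 UMI, 76.4% a Meox2 UMI, 60.3% a Ccn3 UMI and 3.61% a Cadm2 UMI. At E15.5 the shares of 1883 such mandibular cells were 85.3%, 81.4%, 43.8% and 9.35%. Of 1060 E15.5 maxillary cells with an Ebf2 UMI, 65.5% had an Itih5 UMI, 65.8% a Meox2 UMI, 27.8% a Ccn3 UMI and 18.5% a Cadm2 UMI. At P1 the shares of 518 such maxillary cells were 36.7% for Itih5, 36.7% for Meox2, 14.7% for Ccn3 and 13.5% for Cadm2. With shared barcodes they were 70.9%, 60%, 28.5% and 6.67% of 165 cells, in the same order. With the barcodes that were not shared they were 20.7%, 25.8%, 8.22% and 16.7% of 353 cells, with Ccn3 below Cadm2. The order of these shares follows in part from the levels the genes were chosen for. The shares depend on the depth of the cells and are not compared between libraries.

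To separate the mix of populations from the level within them, each gene was recomputed at a common mix, the mean of the mixes of the jaws over populations with at least 20 cells in both. At E15.5 these were 16 populations with 90.6% of maxillary and 96.9% of mandibular mesenchymal UMIs. The log2 ratio of Ebf2, maxillary over mandibular, went from -1.95 to -0.20 (interval -0.25 to -0.16), and that of Meox2 from -1.67 to -0.13 (-0.19 to -0.07). Ccn3 went from -2.03 to -0.42 (-0.53 to -0.30), and Itih5 from -1.65 to -0.63 (-0.69 to -0.57). Cadm2 went from 1.80 to 0.56 (0.46 to 0.66). None of the 5 was past 2-fold at this common mix at E15.5. With the maxillary mix in its place Itih5 was, at -1.04, and Ccn3 stood at -0.999.

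At P1, with all maxillary cells, 18 populations entered. Ebf2 went from -2.96 to -0.39 (-0.51 to -0.28) and Meox2 from -2.26 to -0.01 (-0.18 to 0.16). Itih5 went from -2.55 to -0.89 (-1.02 to -0.76), and was past 2-fold in 3 of 13 alternatives, among them populations of the maxillary library (-1.45) and of the mandibular library (-1.27). With all maxillary cells Ccn3 and Cadm2 stayed past 2-fold, Ccn3 going from -3.56 to -1.34 (-1.61 to -1.08) and Cadm2 from 3.16 to 1.63 (1.53 to 1.74). The value of Ccn3 depended on the settings, past 2-fold in 7 of 13 alternatives. It was -0.85 with the maxillary mix, -0.90 with a minimum of 2000 UMIs and -0.86 with doublet and quality filters. It was 0.07 when the libraries were clustered and named separately and -2.32 with populations of the maxillary library. Cadm2 lay between 1.51 and 2.75 in all 13 alternatives.

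**Figure D3:**
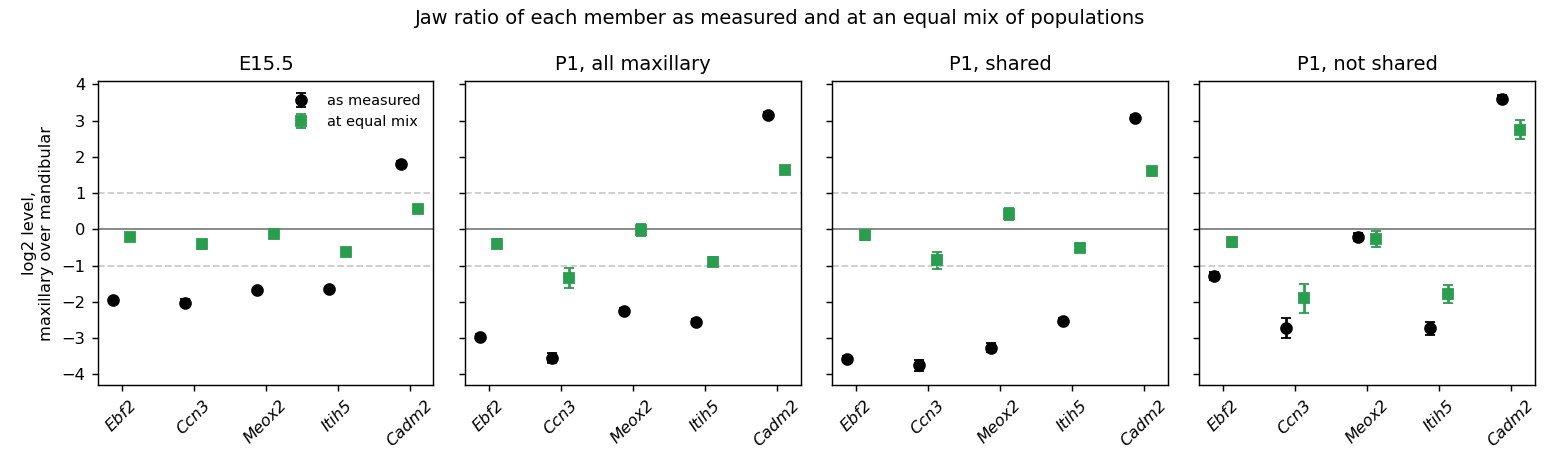
Log2 ratio of each gene, maxillary over mandibular, in mesenchyme as measured (black circles) and at an equal mix of populations (green squares), with 95% counting intervals; dashed lines mark 2-fold. The squares lie nearer to 0 than the circles for the E15.5 panel and the first 2 P1 panels, nearest for Meox2 at P1 with all maxillary cells (-0.01), and Cadm2 stays above 2-fold in all 3 P1 panels.

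The difference between the jaws was also divided into CPM from the mix, CPM from the level within populations, and CPM from populations left out because they had under 20 cells in a jaw. Of the 345 CPM by which Ebf2 was lower in the maxillary library at E15.5, the mix gave -307 CPM, the level within populations -39.8 CPM and the remaining populations 0.98 CPM. For Itih5 the difference of -190.1 CPM was made up of -129 CPM from the mix, -74.1 CPM from the level and 13.1 CPM from the remaining populations. For Cadm2 the difference of 95.2 CPM was made up of 53.0, 26.3 and 15.9 CPM in the same order. At P1 the mix gave -157 of -181 CPM for Ebf2 and -73.2 of -66.3 CPM for Meox2. For Ccn3 it gave -41.5 and the level -24.7 of -65.5 CPM. For Itih5 it gave -106 and the level -55.1 of -159 CPM. For Cadm2 at P1 the level within populations gave 61.7 of 137.8 CPM, the mix 47.0 CPM and the populations left out 29.1 CPM. The largest component at P1 changed with the part of the maxillary library. With shared barcodes, the populations left out gave -123 of -190.4 CPM for Ebf2, against -60.8 CPM from the mix, and -54.3 of -75.1 CPM for Meox2, against -26.9 CPM. They were the largest component for Ccn3 (-36.4 of -66.3 CPM) and Itih5 (-113 of -159 CPM) too. For Cadm2 the mix (62.1 CPM) and the level (63.1 CPM) were then about equal. With the barcodes that were not shared, the level exceeded the mix for Ccn3 (-34.5 against -30.0 CPM) and Itih5 (-88.4 against -80.3 CPM). In that part the populations left out gave 173 of 194 CPM for Cadm2. A population left out can still hold a few cells in the other jaw, so this component contains differences in mix that the minimum of 20 cells set apart. The mix is one of UMIs, but the Ebf2 carriers differed in cell number too: at E15.5 they were 10.9% of cells and 10.4% of UMIs in maxillary mesenchyme, and 51.6% of both in mandibular mesenchyme. At P1 they were 3.14% of cells and 1.81% of UMIs against 26.9% and 23.1%.

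**Figure D4:**
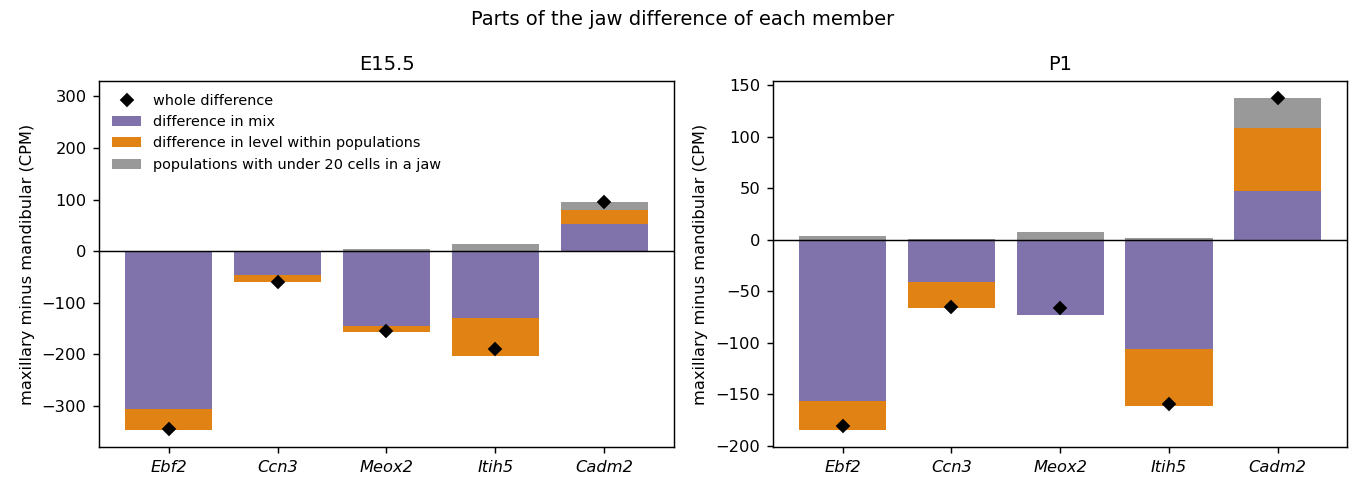
Maxillary minus mandibular level of each gene in mesenchyme (CPM), divided into the mix of populations (purple), the level within populations (orange) and populations left out for having under 20 cells in a jaw (grey); diamonds mark the whole difference, and P1 uses all maxillary cells. Purple makes up most of the bar for Ebf2 and Meox2 in both panels (-307 of -345 CPM for Ebf2 at E15.5) and orange is the longest piece for Cadm2 at P1 (61.7 of 137.8 CPM), an order that changed at P1 when the parts of the maxillary library were taken alone.

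The parts of the P1 maxillary library gave different values. With shared barcodes alone Ebf2 stood at 17.4 CPM, Ccn3 at 5.31, Meox2 at 8.70, Itih5 at 33.5 and Cadm2 at 146 CPM. With the barcodes that were not shared they stood at 85.1, 10.9, 73.0, 28.9 and 211.0 CPM. Against the mandibular library, Meox2 was 9.63-fold lower with shared barcodes and 1.15-fold lower with the others, so its P1 difference past 2-fold was held by the shared barcodes. The log2 ratio of Ebf2 was -3.58 and -1.29. Outside the Ebf2 carriers the direction of Ebf2 turned in the barcodes that were not shared, with 46.6 CPM in maxillary against 31.6 CPM in mandibular cells. Meox2 turned further, with 64.5 against 30.0 CPM (log2 1.10, 0.96 to 1.24). Ccn3, Itih5 and Cadm2 were past 2-fold in either part, with log2 ratios of -3.75 and -2.71 for Ccn3, -2.52 and -2.73 for Itih5, and 3.08 and 3.61 for Cadm2. At the common mix, Cadm2 was at 1.60 with shared barcodes and 2.75 with the others, and Ccn3 at -0.86, short of 2-fold, and -1.90. Itih5 was at -0.50 and -1.79, Meox2 at 0.42 and -0.26, and Ebf2 at -0.17 and -0.34. The common-mix values for shared barcodes cover populations with 75.9% of mandibular mesenchymal UMIs and leave out the Angptl7 population. Those for barcodes that were not shared cover populations with 30.1% of that part's mesenchymal UMIs. The jaw and the make-up of this library cannot be told apart for a value that differs between its parts.

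Relatives of the 5 genes were read from lists drawn up with earlier results of these data known. In the EBF family, which includes Ebf2, 3 of 4 genes reached 50 CPM at each stage, and 2 were past 2-fold towards the mandibular library at E15.5 and 3 at P1, beside 1.44% and 1.73% of all genes tested and a median log2 of 0.03 and 0.05. Ebf2 was chosen for this difference and Ebf3 reached 50 CPM only in the mandibular library, so nothing is read from this count. Ebf1 stood at 651 CPM in maxillary and 1037 CPM in mandibular mesenchyme at E15.5 and at 203 and 471 CPM at P1, where the parts of the maxillary library stood at 140 CPM with shared barcodes and 597 CPM with the others. Ebf3 stood at 49.1 and 145 CPM at E15.5 and at 24.1 and 54.9 CPM at P1. With the barcodes that were not shared only Ebf2 of the 3 was past 2-fold, Ebf1 being at 0.34 and Ebf3 at -0.34 on the log2 scale. Ebf4, under 50 CPM and not counted, went the other way. It stood at 30.8 CPM in maxillary and 15.4 CPM in mandibular mesenchyme at E15.5 (log2 1.003), and at 34.7 and 28.7 CPM at P1. In the CCN family Ccn3 was the only one of 3 genes tested past 2-fold at either stage with all cells (with the P1 barcodes that were not shared Ccn4 reached a log2 ratio of -1.14 and Ccn2 one of 1.06), and Ccn1, a matricellular gene induced by serum, stood at 179 and 125 CPM at E15.5. Meox1 was below 50 CPM at E15.5, with 11.3 and 29.6 CPM, and Itih1, Itih2, Itih3 and Itih4 were below 2 CPM in all 4 libraries. Cadm1 stood at 72.1 CPM in maxillary and 43.3 CPM in mandibular mesenchyme at E15.5. At P1, with the barcodes that were not shared, Cadm1 was past 2-fold towards the maxillary library, at 82.2 against 25.5 CPM (log2 1.69). Of the 4 partners of EBF proteins or adipocyte lineage regulators listed (Zfp423, Zfp521, Prdm16, Prrx1), 3 were tested at each stage and none was past 2-fold, with Zfp423 at 71.7 and 73.2 CPM at E15.5. With the barcodes that were not shared, Zfp521 (log2 1.42) and Prrx1 (1.72) were past 2-fold towards the maxillary library at P1.

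Among the jaw identity genes, 1 of 7 mandibular genes was tested at E15.5 and 3 at P1, with none past 2-fold in either direction when all maxillary cells were used. Members under 50 CPM were not counted: Hand2, given above, had log2 ratios of -4.58 and -7.37, and Pitx1 had -1.59 at P1. The 3 at P1 turned with the part of the library: Dlx3, Dlx4 and Dlx5 had log2 ratios of 0.70, 0.77 and 0.54 with shared barcodes and -3.27, -3.36 and -3.19 with the others. Pitx1 stood at 59.2 CPM in maxillary and 96.9 CPM in mandibular mesenchyme at E15.5. None of the 6 maxillary identity genes reached 50 CPM in all mesenchyme of a library, and Six2, a homeobox gene of the upper face, stood at 49.5 and 11.4 CPM at E15.5. Of the 6 palatal shelf genes 4 were tested at each stage, with 1 past 2-fold towards the maxillary library at E15.5 and none at P1, beside 3.04% and 1.45% of all genes tested. With the barcodes that were not shared, Shox2 and Mn1 reached log2 ratios of 1.69 and 1.67 at P1, Mn1 at 53.5 against 16.8 CPM. Barx1, a homeobox gene of molar mesenchyme, stood at 363 and 223 CPM at E15.5 and at 584 and 376 CPM at P1, where it was at 214 CPM in the barcodes that were not shared.

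The genes whose levels followed each member most closely were sought over the populations of each jaw, 37 points at E15.5 and 42 at P1, among 6213 genes, by the lower of the Pearson correlations of the stages. The points share libraries and depth, and the values are a description. Populations of both jaws enter together, so the jaw differences the genes were chosen for are part of each correlation. For Ebf2 they were 4930438E09Rik (lower r 0.93), the antisense gene inside it, then Meox2 (0.89), Capn6 (0.83), Mgp (0.81) and Nrk (0.79). For Ccn3 they were Tppp3 (0.90), Col5a3 (0.85), Nrk (0.85), Rtl3 (0.85) and Itm2a (0.83). For Meox2 they were Ebf2 (0.89), Egfl6 (0.86), 4930438E09Rik (0.81), Mgp (0.75) and Ebf3 (0.75). For Itih5 they were Myadm (0.88), Zim1 (0.82), Galnt17 (0.80), Peg3 (0.80) and Col6a1 (0.77). For Cadm2 the values were lower, with Nup98 (0.73), Gabrb1 (0.72), Itga8 (0.72), Cntn5 (0.70) and Epha7 (0.70). Between Cadm2 and the other 4 genes the correlations were below 0 at both stages, from -0.24 with Meox2 to -0.57 with Itih5 at E15.5. These signs follow in part from the opposite jaw differences the genes were chosen for, so nothing is read from them.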

How the data were processed

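The 4 10x Chromium 3' (v3.1) libraries used were made from dissociated molar tooth organs, 1 per jaw and stage. The authors deposited filtered matrices of raw UMI counts per gene and barcode. Per the file headers these were made with Cell Ranger 7.0.1, and the labels name mm10; whether introns were counted is not given in the sources used here. Total counts were 109723360 and 86659227 UMIs in the E15.5 maxillary and mandibular libraries and 128812956 and 139873101 at P1.

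Barcodes with at least 1000 UMIs were kept, and those shared by the P1 libraries were dropped from the mandibular one. Each cell was scaled to 10000 counts before the log transform. The 2000 most variable genes, without the 5 genes, mitochondrial and ribosomal protein genes, gave 40 components, 15 neighbours and Leiden clusters at resolution 1.0 (scanpy 1.11.5, leidenalg 0.10.2), for both jaws of a stage together. Clusters were named from listed markers by thresholds set after the clusters were seen, so names are rebuilt, not the study's. A population kept a name only if one of its own markers was among its 10 leading genes; populations are otherwise called by leading genes (highest fold over other mesenchyme at 50 CPM or more). No doublet filter was applied; a Scrublet filter was an alternative.

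Levels are counts per 1000000 (CPM) of summed UMIs, with exact Poisson intervals; ratios have exact conditional binomial intervals, values at a common mix have delta-method intervals, and all cover counting error only (95%). Genes with at least 50 CPM in either jaw were compared at 2-fold, with any count below 3 raised to 3. The ratio and common-mix computations were tested on simulated data. The 5 genes, the gene lists and the comparisons were chosen with earlier results of these data known. Genes named were the 5 genes, those of the lists, the 5 leading genes of populations described and the 5 genes most like each member; 1 leading gene is not reported here. Alternatives changed the UMI minimum, the shared barcodes, doublet and quality filters, naming, scaling, thinning, clustering and the common mix.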

Additional observations from a re-analysis of the deposited data

How the results depend on the processing

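The jaw ratios in mesenchyme kept their direction for all 5 genes at both stages under every alternative run, and 9 or 10 of the 10 ratios stayed past 2-fold. Meox2 at P1 was the one that did not, with log2 ratios of -0.23 with the shared barcodes dropped from both P1 libraries and -0.20 with only the P1 maxillary barcodes that were not shared. At a common mix, 2 of 10 ratios were past 2-fold, and the number was 1 with a minimum of 2000 UMIs, with the Scrublet and quality filters, at resolution 2.0, with libraries clustered and named separately, and with only the shared P1 maxillary barcodes. It was 3 with populations of the maxillary library, with those of the mandibular library and with only the P1 maxillary barcodes that were not shared. Itih5 at E15.5 passed 2-fold with the maxillary mix (-1.04). Ccn3 at P1 turned from -1.34 to 0.0739 when the libraries were clustered and named separately. Below 2-fold, the common-mix sign also turned for Ebf2 at P1 (0.07 without the genes past 2-fold), Ccn3 at E15.5 (0.03 with the Scrublet and quality filters) and Meox2 at P1 (up to 0.42). The causes were not tested. Counts of genes past 2-fold, mandibular then maxillary, were 56 and 118 at E15.5 and 68 and 57 at P1. With at least 20 CPM they were 106 and 203, and 118 and 98. With a fold of 1.5 they were 154 and 254, and 143 and 157. With only the P1 maxillary barcodes that were not shared they were 266 and 260 at P1, from cells with a median of 2639 UMIs. The separate clustering and the split of the P1 maxillary library were chosen after seeing the data. No paired analysis was run because each group is 1 library and the stages are different conditions, not replicates. Small groups of cells limit some P1 values, such as the 30 maxillary tendon-like cells and the 37 mandibular cells of the Dab1 population.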

Other observations

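Outside the mesenchyme Ebf2, Meox2, Itih5 and Cadm2 were also carried by other cell types. Pericyte-like cells held Ebf2 at 372 CPM (95% counting interval 339 to 407) in the E15.5 maxillary and 436 CPM (399.7 to 476) in the E15.5 mandibular library, and at 267 and 437 CPM at P1. Ccn3 stood between 3.1 and 22.0 CPM in the same cells. Endothelium-like cells held Meox2, at 103 and 168 CPM in the E15.5 libraries and at 57.5 and 89.5 CPM in those of P1. Glia-like cells held Itih5, with 208 CPM in maxillary and 384 CPM in mandibular cells at E15.5, then 200.2 CPM and 754 CPM at P1, the last from 94 cells. Glia-like cells also held Cadm2, with 90.9 CPM against 117 CPM at E15.5, then 200.2 CPM against 340 CPM at P1, where 36 of the 418 maxillary cells had shared barcodes. In those 36 cells Cadm2 stood at 263 CPM and Itih5 at 406 CPM.

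In the P1 maxillary library 2 clusters with neuronal markers held 1163 cells, 1132 of them with barcodes that were not shared, against 3 cells in the P1 mandibular library. One was led by Fstl5, Myt1l, Calb2, Lhx2 and Gng13, with 803 maxillary cells, and the other by the hormone genes Vip, Gh, Tshb, Pomc and Cga, with 360 maxillary cells, so they are not given one cell type name. Together they held Ebf2 at 951 CPM (922 to 981) and Cadm2 at 211 CPM. Over all kept cells Ebf2 stood at 53.5 CPM in the P1 maxillary library, against 26.7 CPM in its mesenchyme.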
